A study of Mus musculus with 24 samples.

Results

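The collagen chain genes are the protein-coding genes whose symbol has the form Col, a number, a and a number, such as Col1a1. The rule used the symbol alone and found 44 genes among the 43629 gene identifiers of the count table. They were followed at 3 h in a pair of mouse tumour lines. E0771 derives from breast adenocarcinoma, and MC38 is labelled as colon adenocarcinoma. In each line 3 libraries came from cells given the solvent DMSO, 3 from cells given 2.5 µM RG6146, 3 from cells given 10 ng/mL TNF, and 3 from cells given both agents, called the combination here. RG6146 is an inhibitor of BET bromodomains, which bind acetylated histones, and TNF is an inflammatory cytokine. The growth protocol of every sample speaks of MC38-Ova, whereas grouping followed the line on each label. No label says whether replicates were separate cultures, so a p-value here measures the spread between libraries, which may be technical.

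Collagens are the main structural proteins of the extracellular matrix, and each molecule is a helix wound from several chains that are encoded by separate genes. Fibrillar collagens build the fibres of connective tissue, collagen IV forms the network of basement membranes, and collagen VI forms beaded filaments around cells. Fibril-associated collagens coat fibres, anchoring and short chain collagens link or line sheets of matrix, and transmembrane collagens stay in the cell membrane. Fibroblasts are the main source in tumours, but carcinoma cells make collagens of their own.

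Library totals ran from 5392406 to 9132814 counts in E0771 and from 5392808 to 9673118 in MC38. Levels are given as CPM, in which each count is divided by its library total scaled by TMM factors over the 24 libraries, as mean ± SD (n = 3) or for each replicate in the order 1, 2 and 3. The library kit reads the 3′ end of each transcript, so counts were not divided by gene length. Of 7 epithelial markers, Krt8 was the 1 past the filter on low counts in E0771, at 95.7 ± 9.14 CPM with DMSO, and none passed in MC38. Epcam, which marks epithelial cells, had 2 counts over the 3 DMSO libraries of E0771 and 0 in those of MC38. Of 8 fibroblast markers other than collagens 3 passed in each line. The share of mitochondrial ribosomal RNA was 0.376% for replicate 2 of E0771 with TNF, 0.609% for replicate 2 of MC38 with DMSO, and 1.69% to 3.23% elsewhere. Leukocyte markers summed to 95.3 CPM in MC38 combination replicate 2 and to 1.82 to 7.09 CPM in the other 11 MC38 libraries. These 3 libraries and MC38 TNF replicate 1, which lay farther from its group mean than the other TNF libraries of MC38, stood apart. Its root mean square distance was 0.591, against 0.382 and 0.385. The choice was not by distance alone, since E0771 TNF replicate 3, at 0.566, was kept, while MC38 DMSO replicate 2 had 0.561. Values without the libraries that stood apart are given beside the treatment results that they moved most.

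Of the 44 genes, 12 counted as expressed in E0771 and 17 in MC38. A gene counted as expressed in a line if it passed the filter there, which asks for about 10 counts in at least 3 libraries (1.81 CPM in E0771 and 1.31 CPM in MC38). The lines shared 11 expressed genes. Col9a1 passed in E0771 alone, and Col27a1, Col11a1, Col5a2, Col4a5, Col8a1 and Col9a3 passed in MC38 alone. Col9a1 was the member just inside the filter in E0771 with 133 counts over 12 libraries, and Col8a1 with 73 was just outside. In MC38 Col27a1 with 151 counts was just inside and Col11a2 with 44 just outside.

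The remaining 26 genes passed in neither line. Col4a6, Col6a4 and Col10a1 had 0 counts in all 24 libraries, where 3 counts over the 12 libraries of a line, the limit a count of 0 allows, come to 0.0406 CPM in E0771 and 0.0346 CPM in MC38. Another 13 had 1 to 10 counts in all and 10 had more, up to 74. The chains of collagen I, the main collagen of skin, bone and tendon, belonged to this group. Col1a1 had 5 counts over the 12 E0771 libraries and 10 over the 12 MC38 libraries. Col1a2 had 0 and 8. Among the 10 genes with more counts, Col24a1 had 68 counts in E0771 and 1 in MC38, Col13a1 had 69 and 5, and Col2a1, the cartilage collagen chain, had 54 and 3.

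Together the 44 genes took 1542 ± 21.7 CPM in E0771 with DMSO and 1297 ± 97.5 CPM in MC38 with DMSO, a difference that was not tested. In MC38 the sum was 1148 ± 49.4 CPM with RG6146, 1313 ± 204 with TNF and 1111 ± 40.8 with the combination, and in E0771 it was 1551 ± 17.1, 1743 ± 288 and 1664 ± 40.7. The TNF sums were raised by the library that stood apart in each line, at 2061 CPM in E0771 and 1548 CPM in MC38. Without the libraries that stood apart the mean with TNF was 1584 CPM in E0771, against 1542 with DMSO, and 1196 CPM in MC38, against 1251 with DMSO. Beaded filament chains held 43.3% of the collagen CPM in E0771 and 23.3% in MC38, on the means of all 12 libraries of a line. Basement membrane chains held 18.9% and 11.3%. Fibril-associated chains held 13.6% and 30.5%, and fibrillar chains 14.003% and 26.2%. Col6a3, Col16a1 and Col4a1 were the leading members by counts in E0771, and Col16a1, Col3a1 and Col6a3 in MC38, holding 57.1% and 62.9% of the members' counts.

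**Figure D1:**
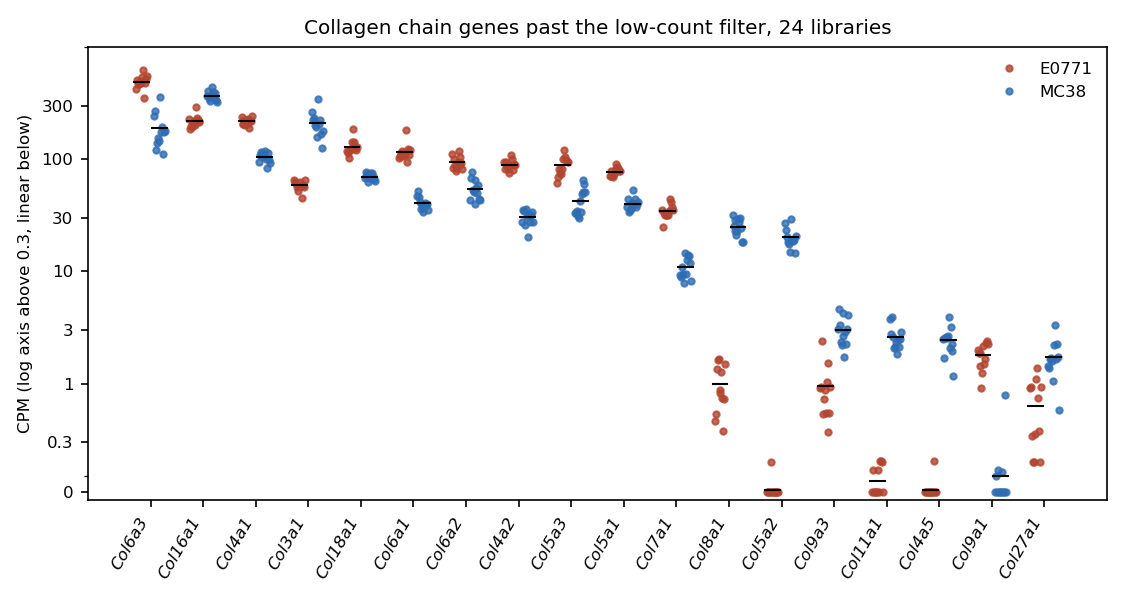
CPM of the 18 collagen chain genes past the filter in at least 1 line, 1 point for each library (12 of E0771 in red, 12 of MC38 in blue) and a black bar for the mean of the 12, on an axis that is logarithmic above 0.3 CPM and linear below. Col5a2 lies between 14.7 and 29.3 CPM in MC38 and at or near 0 in E0771.

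The comparison of the lines with DMSO asked which collagen chains each line made more of. With DMSO, edgeR's quasi-likelihood test called 17 of the 18 tested members, 10 higher in E0771 and 7 higher in MC38. Of all genes tested 58.7% were called, 28.9% higher in E0771 and 29.9% higher in MC38. Genes that passed only through the line where they are high had to differ, so the count of members describes the 18 genes and is not support for a difference of the family. Log2 fold changes are E0771 minus MC38 ± SE, with 3 libraries in each group, and the sign of each call was the same in all 13 alternatives run. RNA came from bulk cultures, so fewer cells that make a transcript and less transcript in each cell cannot be told apart.

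Among fibrillar chains Col5a2 was present in MC38 and next to absent in E0771. It encodes a chain of collagen V, a collagen that starts fibre assembly, and lies on chromosome 1 at 45374321 to 45503282 on the minus strand (mm10). MC38 had 27.1, 23.5 and 20.4 CPM with DMSO and the 3 E0771 DMSO libraries had 0 counts, so the level in MC38 was at least 155-fold higher (against a floor of 3 counts over the group). Over all 12 libraries E0771 had 1 count of Col5a2 and MC38 had 1742. The other collagen V chains went the other way. Col5a1 (chromosome 2, 27886425 to 28039514) stood at 70.9, 70.5 and 78.1 CPM in E0771 and 37.5, 44.3 and 33.8 CPM in MC38 (0.92 ± 0.12, adjusted p = 5.39e-07 by edgeR). Col5a3 (chromosome 9, 20770050 to 20815067) stood at 61.2, 69.0 and 81.3 CPM in E0771 and 33.1, 33.1 and 34.2 CPM in MC38 (1.07 ± 0.15). So E0771 had the α1 and α3 transcripts of collagen V with next to no α2 transcript, and MC38 had all 3.

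Col3a1, whose chain forms collagen III alone, was higher in MC38. It lies 24614 bases from Col5a2, tail to tail, on chromosome 1 at 45311538 to 45349706. Its levels with DMSO were 264, 222 and 235 CPM in MC38 and 65.2, 62.0 and 61.9 CPM in E0771, with no overlap (-1.93 ± 0.17, adjusted p = 1.71e-09 by edgeR). An exon of the predicted gene Gm47302 lies on the same strand over Col3a1, and counting could have split reads between them. Col11a1, a chain of the minor fibrillar collagen XI, had 75 counts in the MC38 DMSO libraries and 1 in those of E0771, a ratio of 66.7 with a 95% exact interval of 11.6 to 2669 that covers counting error only. The groups did not overlap for Col27a1, a fibrillar chain of cartilage, but it did not pass the test, with 1.44, 1.38 and 1.66 CPM in MC38 and 0.921, 0.940 and 0.340 CPM in E0771 (-0.97 ± 0.48, adjusted p = 0.0880 by edgeR).

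Both chains of the common basement membrane collagen, Col4a1 and Col4a2, were higher in E0771. The genes start head to head on chromosome 8 and overlap by 22 bases at their starts (Col4a1 at 11198423 to 11312826 on the minus strand, Col4a2 at 11312805 to 11449287 on the plus strand). Col4a1 had 240, 206 and 206 CPM in E0771 and 94.0, 108 and 115 CPM in MC38 (1.04 ± 0.12). Col4a2 had 94.8, 81.0 and 93.9 CPM against 27.5, 35.6 and 34.4 CPM (1.46 ± 0.15). No library of one line reached the range of the other for either gene. Col4a1 and Col4a2 overlap each other in those 22 bases only, at their starts, while the kit reads the 3′ end of transcripts. Exons of other genes lie on the opposite strand over Col4a2 (Gm15419) and Col5a1 (2810430I11Rik and Gm13372). Without the strand setting, reads in the overlaps with these other genes cannot be told apart. Col4a5, whose chain belongs to another collagen IV network, had 209 counts over the MC38 libraries and 1 over those of E0771, with 2.52, 1.68 and 2.56 CPM in MC38 with DMSO. With 0 counts in E0771 DMSO its level in MC38 was at least 14.2-fold higher, and its head to head partner Col4a6 had no count anywhere.

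The 3 expressed chains of collagen VI, which form 1 molecule together, were all higher in E0771. Col6a3 had 420, 504 and 473 CPM in E0771 and 244, 270 and 122 CPM in MC38 (1.13 ± 0.26, adjusted p = 0.000610 by edgeR). MC38 DMSO replicate 3 was the low library of that group. Col6a1 had 102, 107 and 114 CPM against 47.2, 52.1 and 45.7 CPM (1.15 ± 0.16). Col6a2, which neighbours Col6a1 on chromosome 10, had 111, 83.7 and 100 CPM against 43.1, 68.5 and 77.5 CPM (0.63 ± 0.18, adjusted p = 0.00378 by edgeR). Col6a4, Col6a5 and Col6a6, which encode alternatives to the Col6a3 chain, had at most 2 counts in a line.

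Col7a1, which encodes the anchoring fibril of skin and other stratified epithelia, was higher in E0771, with 35.4, 24.8 and 33.0 CPM against 9.34, 8.997 and 10.9 CPM (1.68 ± 0.21). Col18a1, whose chain carries heparan sulphate in basement membranes and releases endostatin, was higher there too, with 119, 113 and 103 CPM against 68.3, 76.2 and 70.1 CPM (0.64 ± 0.11). Higher in MC38 were the short chain gene Col8a1, with 31.6, 25.3 and 29.0 CPM against 0.460, 0.537 and 1.36 CPM (-5.20 ± 0.29), and the fibril-associated gene Col16a1, with 369, 408 and 353 CPM against 230, 187 and 196 CPM (-0.88 ± 0.13). None of these 4 genes overlapped between the lines, and the same held for every other tested member. The share of all genes without overlap is not given.

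Collagen IX, a fibril-associated collagen of cartilage made from 3 chains, was split between the lines. Col9a1 had 13, 14 and 11 counts in E0771 with DMSO and 1 count in the MC38 DMSO libraries, a ratio of 42.7 (95% exact interval 7.22 to 1731, counting error only). Col9a3 was higher in MC38, with 3.05, 4.65 and 3.32 CPM against 0.921, 0.940 and 2.38 CPM (-1.42 ± 0.40, adjusted p = 0.00391 by edgeR). Exons of Tcfl5 lie opposite Col9a3, and the strand setting of the counting is unknown, so its counts can include reads of Tcfl5. Col9a2 had 4 counts in E0771 and 0 in MC38. Of the 9 counts of Col9a1 in MC38, 6 came from combination replicate 2, the library with the high leukocyte markers, in which epithelial markers reached a sum of 8.36 CPM, while no other library of MC38 passed 0.965 CPM.

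**Figure D2:**
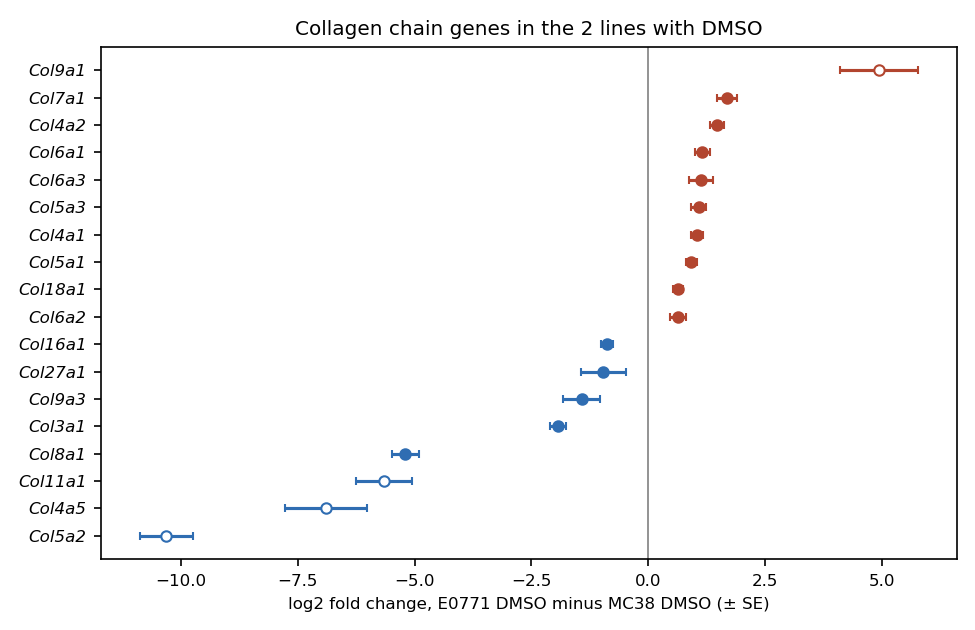
Log2 fold change (± SE) of the 18 tested collagen chain genes between the 3 E0771 and the 3 MC38 libraries with DMSO, red where E0771 is higher and blue where MC38 is higher. Open symbols mark Col9a1, Col11a1, Col4a5 and Col5a2, which had at most 3 counts in 1 of the groups, so that their fold change depends on the prior count. Col27a1 alone did not pass the test.

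The comparison of TNF with DMSO asked whether the cytokine changed collagen transcripts within 3 h. In E0771, 2 of the 12 tested members were called, both higher, against 2.32% of all genes called and 1.88% called higher. The median log2 fold change was 0.15 over the 12 members and -0.02 over all genes, and the members' median was 0.04 without TNF replicate 2. Col5a3 rose 1.51-fold (0.60 ± 0.11, adjusted p = 0.00738 by edgeR), from 61.2, 69.0 and 81.3 CPM to 100, 121 and 105 CPM. All TNF libraries lay above all DMSO libraries. The rise was 0.53 without TNF replicate 2, the library low in mitochondrial ribosomal RNA (adjusted p = 0.00904 by edgeR), and the call ended in a fit of the 6 libraries compared (adjusted p = 0.151).

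Col18a1 rose by 0.45 ± 0.10 in E0771 with TNF (adjusted p = 0.0317 by edgeR). It went from 119, 113 and 103 CPM to 142, 187 and 141 CPM, with no overlap, and TNF replicate 2 was the highest library. Without that library the rise was 0.33 (adjusted p = 0.0368). The call ended without DMSO replicate 1, 2 or 3 (adjusted p = 0.0694, 0.109 and 0.161), with library totals alone (0.0798), with a replicate block (0.0573) and in a fit of the 6 libraries compared (0.332). Of the members not called, Col5a1 was the nearest, with 79.9, 91.1 and 86.1 CPM under TNF and no overlap with DMSO (0.20 ± 0.09, adjusted p = 0.352 by edgeR). Fibroblast markers summed to 73.4 to 101 CPM in the TNF libraries and 59.99 to 65.3 CPM in the DMSO libraries of E0771, and their part in these results was not tested. The 3 of these markers that passed the filter ran from -0.18 to 0.98 on the log2 scale, and Pdgfrb alone was called.

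The 250 bases before the RefSeq start of 3 genes whose calls are described here are shown with matches of 4 motifs in capitals, Col5a3 for its rise with TNF, and Col3a1 and Col8a1 for their decrease under the combination in MC38. The window of Col18a1 holds an exon of that gene and is not shown. The windows come from RefSeq on GRCm38.p6, hold no annotated exon and are written 5′ to 3′ on the strand of the gene (Col5a3, chr9:20815068-20815317, minus; Col3a1, chr1:45311288-45311537, plus; Col8a1, chr16:57754738-57754987, minus).
Col5a3: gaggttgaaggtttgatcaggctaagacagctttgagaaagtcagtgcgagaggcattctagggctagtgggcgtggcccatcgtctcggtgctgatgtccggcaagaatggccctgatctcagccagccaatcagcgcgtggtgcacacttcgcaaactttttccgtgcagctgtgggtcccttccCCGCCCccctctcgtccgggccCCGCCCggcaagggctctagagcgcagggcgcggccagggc
Col3a1: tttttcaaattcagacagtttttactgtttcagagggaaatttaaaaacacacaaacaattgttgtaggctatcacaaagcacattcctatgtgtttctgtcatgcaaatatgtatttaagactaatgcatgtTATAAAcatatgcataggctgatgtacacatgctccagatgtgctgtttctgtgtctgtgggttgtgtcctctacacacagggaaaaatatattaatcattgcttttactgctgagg
Col8a1: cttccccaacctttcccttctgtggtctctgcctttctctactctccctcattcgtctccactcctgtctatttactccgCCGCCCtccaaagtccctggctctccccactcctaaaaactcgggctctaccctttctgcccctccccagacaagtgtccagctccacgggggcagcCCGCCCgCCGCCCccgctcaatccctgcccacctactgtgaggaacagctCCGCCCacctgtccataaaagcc
The motifs, searched on both strands, were the GC box GGGCGG, the TATA box TATAAA, the AP-1 site as TGACTCA or TGAGTCA, and the NF-kB consensus. Col5a3 held the GC box at 63 and 41 bases before its start, Col8a1 held 4 between 170 and 23 bases before it, and Col3a1 held TATAAA at 117 bases. Of 32851 such windows of all genes, 32.7% held the GC box, 12.4% TATAAA, 4.46% an AP-1 site and 7.25% the NF-kB consensus. The last of these was not in the 3 windows shown, which says only that its letters are not in these 250 bases. The NF-kB consensus was present in 6 of the 38 windows of the 35 members in the RefSeq table. These belonged to Col4a2, Col6a2, Col6a4, Col9a1, Col9a2 and Col27a1, and only those of Col6a2 and Col27a1 held no annotated exon. GC content was 35.2% for Col3a1, 62.8% for Col5a3 and 60.8% for Col8a1.

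In MC38 with TNF, edgeR's quasi-likelihood test called 0 of the 17 tested members, against 1.09% of all genes, and DESeq2 called 0 as well. At an unadjusted p under 0.05 there were 3, Col5a3 with a positive and Col6a1 and Col11a1 with a negative fold change. Col5a3 stood at 33.7, 48.5 and 50.5 CPM with TNF against 33.1, 33.1 and 34.2 CPM with DMSO (0.41 ± 0.17, adjusted p = 0.338 by edgeR). The groups overlapped through TNF replicate 1, which stood apart, and without the libraries that stood apart the value was 0.55 ± 0.18 (adjusted p = 0.409). Col18a1 stood at 0.03 ± 0.12. Tested directly, the TNF response differed between the lines for 0 of 18 members by edgeR (0.206% of all genes, 0 members with DESeq2), with 2 at an unadjusted p under 0.05. Those were Col18a1 at 0.47 ± 0.15 (adjusted p = 0.186 by edgeR) and Col6a1 at 0.65 ± 0.23 (adjusted p = 0.203), both more positive in E0771. Without the libraries that stood apart they were 0.29 ± 0.14 and 0.19 ± 0.16 (adjusted p = 0.638 and 0.816). Col5a2, Col4a5, Col9a1 and Col11a1 had next to no counts in 1 line, with an SE of 185, 1126, 1.88 and 1.26. For these genes the test could hardly make a call, so the lack of one says little.

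RG6146 alone was set against DMSO to ask what BET inhibition did to these transcripts. In E0771, edgeR called 0 of 12 members, against 10.8% of all genes, with 0 at an unadjusted p under 0.05 and 0 called by DESeq2. The smallest adjusted p was 0.288. Log2 fold changes ran from -0.65 for Col9a1 to 0.15 for Col5a3, with a median of 0.02. The values of Col6a3 were 420, 504 and 473 CPM with DMSO and 472, 499 and 478 CPM with RG6146. Those of Col4a1 were 240, 206 and 206 CPM and 223, 203 and 224 CPM. For both genes the groups overlapped. They did not overlap for Col18a1, Col3a1 and Col9a1, whose fold changes were 0.14 ± 0.10, -0.17 ± 0.12 and -0.65 ± 0.33. The share of all genes without overlap is not given, so this describes the libraries and is no support for a change.

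In MC38 with RG6146 edgeR called 0 of 17 members, against 8.27% of all genes, and DESeq2 called 0. At an unadjusted p under 0.05 there were 4, each with a negative fold change, and 13 of the 17 fold changes were negative. The shares of all genes in these 2 respects are not given. The median log2 fold change was -0.10 over the members and -0.01 over all genes. Col8a1 stood at 23.1, 21.1 and 23.1 CPM against 31.6, 25.3 and 29.0 CPM with DMSO (-0.37 ± 0.15, adjusted p = 0.161 by edgeR). Col5a2 stood at 18.4, 17.5 and 15.02 CPM against 27.1, 23.5 and 20.4 CPM (-0.50 ± 0.21, adjusted p = 0.166). Neither gene overlapped between the groups. The same held for Col3a1, Col6a1, Col9a3 and Col11a1, each with a negative fold change. Col4a5 did not overlap either, with a positive fold change (0.22 ± 0.33). The share of all genes without overlap is not given. Col6a1 stood at -0.35 ± 0.13 and Col11a1 at -0.62 ± 0.28. Col3a1 had 203, 195 and 158 CPM against 264, 222 and 235 CPM (-0.40 ± 0.20, adjusted p = 0.253), and was called at -0.45 without the libraries that stood apart (adjusted p = 0.0455 by edgeR). Col6a3 stood at -0.55 ± 0.30 (adjusted p = 0.310) and was called with no filter on low counts (-0.54, adjusted p = 0.0214), while without the libraries that stood apart it was at -0.33 (adjusted p = 0.457). Fibroblast markers summed to 211 to 242 CPM with RG6146 and 277 to 290 CPM with DMSO in MC38, and their part in these values was not tested. Of the 3 that passed the filter, Pdgfra and Pdgfrb were called lower (-1.28 ± 0.23 and -1.59 ± 0.38). The remaining marker, Dcn, stood at -0.14 and was not called.

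The comparison of the combination with TNF asked what BET inhibition did in cells that had also received the cytokine. In MC38, 2 of 17 members were called, both lower, against 11.3% of all genes called and 7.60% called lower, so the share of members called was near the background. The median was -0.12 over the members and -0.03 over all genes. Col3a1 fell by 0.74 on the log2 scale (SE 0.20, adjusted p = 0.0274 by edgeR). It had 343, 205 and 223 CPM with TNF and 168, 125 and 179 CPM with the combination. The groups did not overlap, and TNF replicate 1 lay far above the other TNF libraries. The difference was -0.47 without TNF replicate 1 (adjusted p = 0.101), -0.78 without combination replicate 1 (0.0725), -0.61 without combination replicate 2 (0.119) and -0.33 without the libraries that stood apart (0.200).

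Col8a1 fell by 0.54 on the log2 scale in the same comparison (SE 0.15, adjusted p = 0.0360 by edgeR), from 29.3, 27.3 and 29.9 CPM to 24.2, 18.2 and 18.3 CPM, with no overlap. This call ended without any 1 TNF library and without combination replicate 2 or 3 (adjusted p = 0.0563 to 0.135). It ended with RLE factors (0.0531) and with no filter (0.0903) too, and without the libraries that stood apart the difference was -0.45 (0.132). Col6a3 was not called (-0.68 ± 0.30, adjusted p = 0.165), with 356, 176 and 195 CPM against 112, 174 and 179 CPM, which overlapped, though with no filter it was called (-0.66, adjusted p = 0.00137). Without the libraries that stood apart, TNF replicate 1 at 356 CPM among them, the difference was -0.37 (adjusted p = 0.480). Col5a3 had 65.7, 60.5 and 51.1 CPM with the combination, above all libraries with TNF, and was not called (0.39 ± 0.17, adjusted p = 0.162), with 0.21 without the libraries that stood apart. Fibroblast markers moved with these decreases, summing to 303 to 355 CPM with TNF and 203 to 245 CPM with the combination in MC38. Of the 3 that passed the filter, Pdgfra, Pdgfrb and Dcn, all fell (-1.69 ± 0.24, -1.67 ± 0.42 and -0.43 ± 0.13), Postn had no count in MC38, and their part in the collagen results was not tested.

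In E0771 the combination against TNF gave 0 of 12 members called by edgeR, against 16.6% of all genes, and 0 by DESeq2, with 1 at an unadjusted p under 0.05. That member was Col18a1, with 126, 121 and 128 CPM under the combination against 142, 187 and 141 CPM under TNF (-0.29 ± 0.10, adjusted p = 0.0733 by edgeR). The groups did not overlap, and the gene was called without TNF replicate 1 (-0.34, adjusted p = 0.0451), without TNF replicate 3 (-0.37, 0.0229) and with library totals alone (-0.33, 0.0384). Without TNF replicate 2 the difference was -0.16 (adjusted p = 0.168). Col5a3 held 99.1, 97.0 and 95.3 CPM under the combination, just under the lowest TNF library (-0.13 ± 0.11). Col3a1, called lower in MC38, stood at 0.17 ± 0.12 in E0771.

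**Figure D3:**
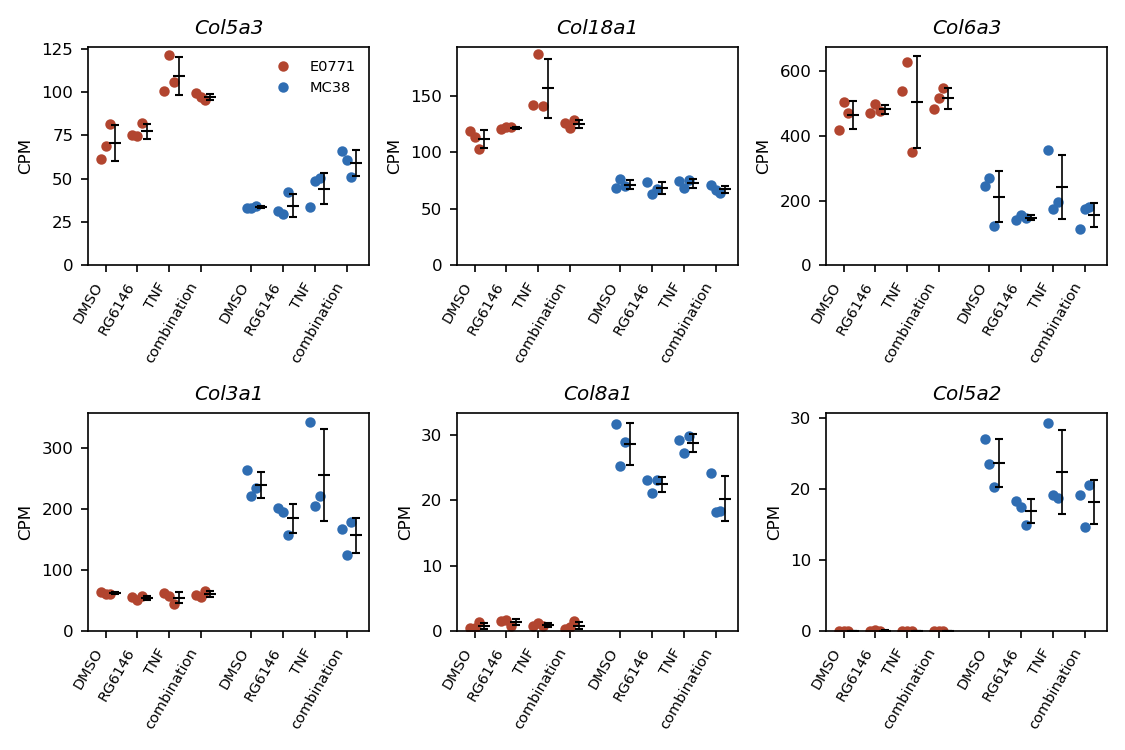
CPM of 6 collagen chain genes in each library of the 4 treatments (E0771 in red, MC38 in blue), with mean and SD in black (n = 3), each axis from 0. In E0771 the 3 TNF points of Col5a3 and of Col18a1 lie above the DMSO points, and in MC38 the combination points of Col3a1 and Col8a1 lie below the TNF points.

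The interaction asked whether the effect of TNF with RG6146 present differed from that without it. It called 0 of 12 members in E0771 (0.0478% of all genes, with 2 members at an unadjusted p under 0.05) and 0 of 17 in MC38 (0.00% of all genes, with 0 members at that level), and DESeq2 called 0 members in each. In E0771 the 2 were Col18a1 at -0.43 ± 0.15 and Col9a1 at 1.06 ± 0.44, both at adjusted p = 0.9999 by edgeR, and without TNF replicate 2 they were -0.30 and 0.90. The RG6146 response was not called different between the lines for any of 18 members (0.384% of all genes, 0 members with DESeq2), with Col8a1 the 1 at an unadjusted p under 0.05 (1.20 ± 0.47, adjusted p = 0.341), on 3, 4 and 8 counts in the DMSO libraries of E0771. Here too Col5a2, Col4a5, Col9a1 and Col11a1 could hardly be called, with an SE of 1.63, 607, 2.21 and 1.12. Comparisons within a line share their DMSO or TNF libraries and are not independent of each other.

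**Figure D4:**
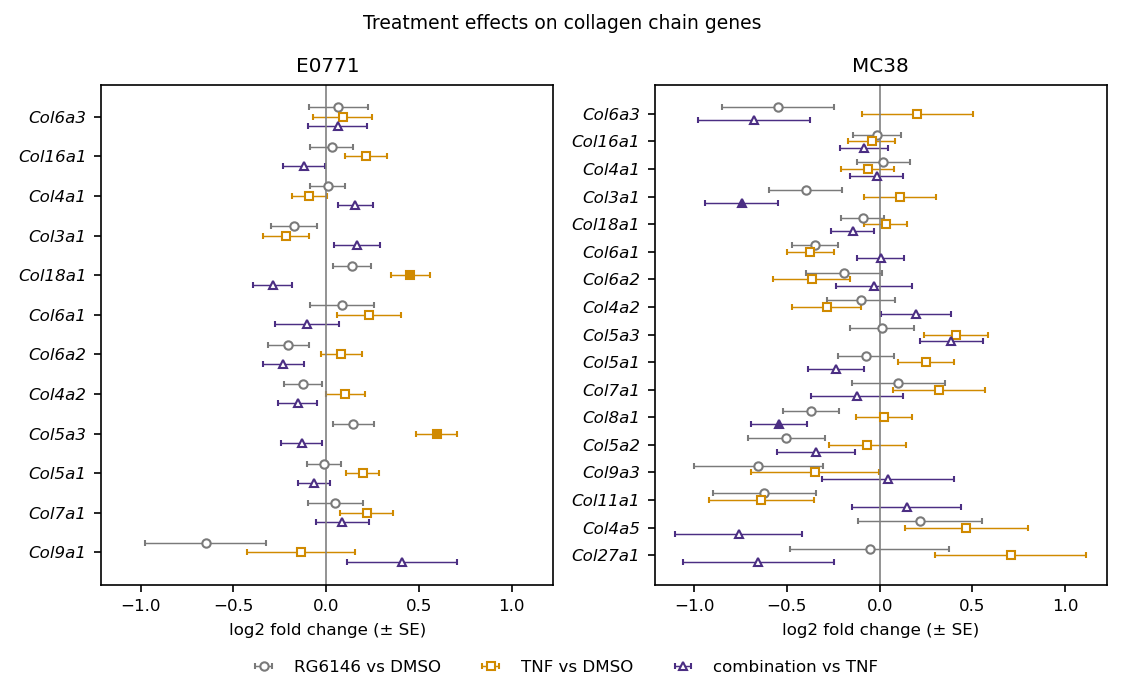
Log2 fold changes (± SE) of the tested collagen chain genes, 12 in E0771 and 17 in MC38, for RG6146 against DMSO (circles), TNF against DMSO (squares) and the combination against TNF (triangles), filled where the adjusted p was under 0.05. The filled symbols are Col5a3 and Col18a1 with TNF in E0771, and Col3a1 and Col8a1 under the combination in MC38.

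Of 30 enzymes and chaperones that fold, modify and crosslink collagen 22 were tested in each line. With TNF, edgeR called 0 in E0771 (0 at an unadjusted p under 0.05, 0 by DESeq2) and 0 in MC38 (3 and 1). Of all genes 2.32% and 1.09% were called there. With RG6146 edgeR called 0 in E0771 (6 and 0) and 0 in MC38 (3 and 1), against 10.8% and 8.27% of all genes. For the combination against TNF it called 0 in E0771 (2 and 0), against 16.6% of all genes. In MC38, Plod1, which encodes a lysyl hydroxylase, was called for the combination against TNF (0.52 ± 0.16, adjusted p = 0.0475), a call that ended in 9 of 13 alternatives. It was the 1 of 22 called there, against 11.3% of all genes. Between the lines with DMSO 13 of 24 were called, 9 higher in E0771, against 58.7% of all genes called and 28.9% called higher in E0771. Pcolce and Pcolce2, which help cleave the ends of procollagens, were higher in E0771 (2.64 ± 0.16 and 4.57 ± 0.26), and P3h2 and P3h4, which belong to the prolyl 3-hydroxylase family, in MC38 (-5.39 ± 0.46 and -2.11 ± 0.11). Serpinh1, the collagen chaperone, had 510 ± 63.3 CPM in E0771 and 371 ± 97.8 CPM in MC38.

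Of 10 collagen receptor genes 4 were tested in E0771 and 7 in MC38. Ddr1, a receptor tyrosine kinase that binds collagen, fell with RG6146 in E0771, from 172 ± 6.73 to 123 ± 9.61 CPM (-0.47 ± 0.09, adjusted p = 0.00436 by edgeR), and all 13 alternatives kept the call. It was the 1 of 4 receptors called there, against 10.8% of all genes. In MC38 with RG6146 edgeR called 0 of 7 (1 at an unadjusted p under 0.05, 0 by DESeq2), against 8.27% of all genes. Ddr1 also fell under the combination against TNF in E0771 (-0.61 ± 0.09) and MC38 (-0.61 ± 0.16, adjusted p = 0.0233). It was the 1 receptor called in each line there, against 16.6% and 11.3% of all genes. The call in MC38 ended without TNF replicate 1 or 3 or any 1 combination library (largest adjusted p = 0.0805). In E0771 the fibroblast markers Pdgfra and Pdgfrb, 2 of the 3 that passed the filter, fell in the same comparisons, by 1.05 and 1.16 on the log2 scale with RG6146 and by 1.06 and 1.58 for the combination against TNF. The remaining marker was not called in either and stood at 0.12 and -0.26. The summed level of the list was 38.2 to 43.4 CPM with RG6146 against 59.99 to 65.3 CPM with DMSO, and 42.2 to 46.9 CPM with the combination against 73.4 to 101 CPM with TNF, and its part in these results was not tested. With TNF edgeR called 0 of these receptors in E0771 (2 at an unadjusted p under 0.05, 0 by DESeq2) and 0 in MC38 (1 and 0). Of all genes 2.32% and 1.09% were called with TNF. Between the lines 6 of 7 receptors were called, 3 in each direction, against 58.7% of all genes, with Ddr1 and Itga1 higher in E0771 (1.88 ± 0.13 and 2.48 ± 0.41) and the endocytic receptor gene Mrc2 higher in MC38 (-5.64 ± 0.72).

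Among 28 other matrix genes 13 were tested in E0771 and 18 in MC38. With TNF, edgeR called 2 in E0771, Hspg2 and Agrn, both higher, against 2.32% of all genes called and 1.88% called higher. In MC38 it called 0 (3 at an unadjusted p under 0.05, 1 by DESeq2), against 1.09% of all genes. They encode perlecan and agrin, which like collagen XVIII are heparan sulphate proteoglycans of basement membranes. Hspg2 rose from 93.6 ± 10.8 to 163 ± 31.7 CPM (0.77 ± 0.13, adjusted p = 0.00279 by edgeR) and Agrn from 118 ± 13.3 to 174 ± 10.9 CPM (0.53 ± 0.10, adjusted p = 0.00692). Without TNF replicate 2 the rises were 0.63 and 0.57 (adjusted p = 0.00155 and 0.00175). In MC38 the same genes stood at -0.32 ± 0.20 and 0.18 ± 0.15. The call of Agrn ended without DMSO replicate 2 (adjusted p = 0.0572), and both ended in a fit of the 6 libraries compared. The difference between the lines in the TNF response was 1.138 ± 0.248 for Hspg2 and 0.39 ± 0.18 for Agrn, and neither was called (adjusted p = 0.0548 and 0.350). Without the libraries that stood apart these were 0.88 and 0.36 (adjusted p = 0.247 and 0.697).

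With RG6146, 1 of 13 other matrix genes tested was called in E0771 and 2 of 18 in MC38. Of all genes 10.8% and 8.27% were called, so these shares were near the background. The genes were Hspg2 in E0771 (0.47 ± 0.13, adjusted p = 0.0259 by edgeR), and Agrn and the thrombospondin gene Thbs1 in MC38 (0.57 ± 0.15 and -1.99 ± 0.55). These calls were kept by 8, 6 and 8 of 13 alternatives, and leaving out single DMSO or RG6146 libraries ended each. Between the lines with DMSO 16 of 19 were called, 7 higher in E0771 and 9 higher in MC38, against 58.7% of all genes called, 28.9% and 29.9% in those directions.

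Under the combination against TNF in MC38, 4 of the 18 other matrix genes tested were called, all lower, against 7.60% of all genes called lower. Thbs2, which encodes the matricellular protein thrombospondin 2, fell from 207 ± 15.1 to 128 ± 18.8 CPM (-0.73 ± 0.13, adjusted p = 0.00276 by edgeR), and all 13 alternatives kept that call. Dcn, which encodes the collagen-binding proteoglycan decorin, and Tnc, which encodes tenascin C, stood at -0.43 ± 0.13 and -1.24 ± 0.36. The remaining gene was Fn1, which encodes fibronectin (-0.49 ± 0.15). Of 13 alternatives 4 kept the call of Dcn, 2 that of Tnc and 4 that of Fn1, and leaving out MC38 TNF replicate 1 or 2 or combination replicate 2 or 3 ended all 3. Dcn is also one of the fibroblast markers. Dcn was high in MC38, with 223 ± 13.3 CPM with DMSO, against 3 counts in the E0771 DMSO libraries.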

How the data were processed

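RNA of 24 samples was read with a 3′ kit (QuantSeq, single-end 75 bp). Per the submitters' processing notes, bcl2fastq 2.17.1.14, cutadapt 1.14, HISAT2 2.1.0, featureCounts of Subread 1.5.2 and limma were used with the build mm10. The authors deposited whole-number counts per Ensembl gene, not normalized. For the strand setting, the annotation release and the treatment of multi-mapped reads the sources used here give nothing.

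Of 43629 identifiers, 42462 were found in GENCODE vM21, which gave symbols, positions and the 44 members. Counts were tested with edgeR 4.0.16 (quasi-likelihood F test, filterByExpr, TMM factors, Benjamini-Hochberg over all genes, called at adjusted p under 0.05) in R 4.3.3, on the 12 libraries of a line (12541 genes in E0771, 13272 in MC38) or all 24 (14058 genes). Tests were two-sided, and fold changes used a prior count of 0.125. Counts of genes at an unadjusted p under 0.05 have no share over all genes beside them and only describe the genes listed. Statements that groups did or did not overlap have no such share either and only describe the libraries. Levels are CPM on TMM factors over 24 libraries. Genes were named if called, if at or above 10 CPM on average in a line, or as chains of the main collagens. Of the other lists, up to 3 called genes per direction with the smallest p were named, and Fn1, Serpinh1 and values beside a called gene in another comparison were added after their values were seen. One result on a matrix gene is not reported here. The members and lists were chosen with earlier results of these data known.

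Alternatives were RLE factors, library totals alone, no filter, DESeq2 1.42.0, a replicate block, leaving out each library, and the 6 libraries compared alone. Leaving out the 4 libraries that stood apart was chosen after seeing the data. Depth is given with the results, and intervals cover counting error only. In data simulated for TNF against DMSO, changes of 0.5 on the log2 scale were recovered for 12.1% of changed genes in E0771 (12394 genes) and 3.03% in MC38 (13131 genes), and changes of 1 for 75.0% and 45.5%.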

Additional observations from a re-analysis of the deposited data

How the results depend on the processing

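The 17 collagen chain genes called between the lines with DMSO were called in the same direction under all 13 alternatives, and the count ran from 17 to 20 because Col24a1, Col13a1 and Col2a1 were tested and called with no filter. The counts of members called with treatment were small and moved. For TNF against DMSO in E0771 the count of 2 became 1 with library totals alone, 1 with the replicate block, 0 on the 6 libraries compared alone, and 1 to 2 when each library was left out. For the combination against TNF in E0771 the count of 0 became 1 with library totals alone, and 0 to 1 when each library was left out. For RG6146 against DMSO in MC38 the count of 0 became 1 with no filter and 1 without the libraries that stood apart. For the combination against TNF in MC38 the count of 2 became 1 with RLE factors, 0 without the libraries that stood apart, 0 on the 6 libraries compared alone, and 0 to 1 when each library was left out. Beyond fewer libraries in some of these fits, the cause was not tested. No result changed direction under the alternatives run, and the other 6 comparisons of collagen genes kept a count of 0.

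Replicate numbers gave no sign of pairing the libraries, though deviations within groups of 3 cannot exclude it. Deviations of same-numbered libraries correlated between -0.18 and 0.14 in E0771 (18 pairs, 3 over 0.1) and between -0.34 and 0.24 in MC38 (18 pairs, 5 over 0.1). Those of differently numbered libraries ran from -0.34 to 0.33 in E0771 and from -0.39 to 0.40 in MC38 (36 pairs each). With the replicate block, Col18a1 with TNF in E0771 was the 1 collagen call lost. Precision was limited by 3 libraries in each group and, for Col9a1, Col11a1, Col4a5 and Col27a1, by low counts.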
